A study of Homo sapiens with 9 samples.

Results

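The collagen genes were taken as every row of the gene table whose symbol is COL, a number, A and a number, which gave 44 of 58381 genes. Of these, 11 encode chains of the fibrillar collagens, 9 encode chains of basement membrane collagens (types IV, VII, XV and XVIII) and 24 encode all other chains. They were described in 9 RNA-seq libraries of TC-32, a human Ewing sarcoma cell line that carries the EWSR1::FLI1 fusion, in 3 groups of 3 libraries. Every group had been transduced with the lentiviral vector pLOC, selected with puromycin and taken through single-cell sorting. The RFP group carried the red fluorescent protein control. The ETS1-Low and ETS1-High groups carried an ETS1 cDNA, ETS1 being a transcription factor whose DNA-binding domain belongs to the same family as that of FLI1. By the series' own description, ETS1-High clones were chosen to hold about as much ETS1 as cells depleted of EWSR1::FLI1, and ETS1-Low clones hold less. All groups keep the fusion, but the number of clones behind a group is not stated, nor whether its replicates were separate cultures. A difference due to ETS1 and a difference between clones therefore cannot be told apart here, and p-values measure only the spread between these libraries.

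ETS1 itself stood at 1.81, 2.03 and 2.15 CPM (counts scaled to a common library size) in the RFP libraries, at 10.6, 10.9 and 10.3 in ETS1-Low and at 19.4, 18.2 and 19.7 in ETS1-High, so the 3 groups did not overlap and followed their labels. Library totals ran from 39484704 to 46654734 counts. All 12 Ewing sarcoma and neural marker genes on a list were detected, with summed levels of 4459 to 4656 CPM in RFP, 6244 to 6336 in ETS1-Low and 5801 to 5835 in ETS1-High. Of 10 fibroblast and stromal markers, which could mark another source of collagen RNA, 9 passed the filter on low counts. The summed level of the 10 was 329 to 346 CPM in RFP, 157 to 159 in ETS1-Low and 192 to 200.5 in ETS1-High. Among them LUM was at 0 in RFP and ETS1-Low and at 0.385 CPM in ETS1-High, and FAP was at 0 in RFP and at 0.220 CPM in ETS1-High. THY1 was at 75.7 CPM in RFP, 5.07 in ETS1-Low and 12.7 in ETS1-High. In the same order of groups, FBLN1 (163.0, 113.1 and 98.5 CPM), PDGFRB (74.2, 20.5 and 26.0) and PDGFRA (12.8, 3.72 and 2.95) were also highest in RFP. TWIST1 (12.2, 14.7 and 47.2 CPM), MFAP5 (0.069, 1.19 and 4.36), POSTN (1.13, 0.059 and 1.81) and DCN (0.014, 0.041 and 0.914) were highest in ETS1-High. In ETS1-High 5 of the 9 were higher than RFP and 4 lower, and in ETS1-Low 2 were higher and 5 lower, where 74.2% and 74.1% of all genes were called. Their part in the collagen results was not tested.

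Collagens are extracellular proteins of 3 chains wound around each other, and a chain is secreted only once it has found its partners. Fibrillar collagens assemble into cross-striated fibrils, with types V and XI inside the fibril setting its diameter. Type IV collagen forms the meshwork of basement membranes, from chain pairs whose genes lie head to head on 3 chromosomes. ETS family factors bind DNA around the core GGAA, and EWSR1::FLI1 also binds arrays of repeated GGAA. Ewing sarcoma cells grow as small round cells with little matrix of their own, and loss of the fusion is known to shift them towards a mesenchymal state.

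The stretches between or before the starts of the collagen genes that the results turn on are shown here, from RefSeq (GRCh38.p14), with each GGAA on either strand in capitals (TTCC where it lies on the other strand). They cover the 3 head-to-head type IV pairs and the 2 fibrillar genes that were most abundant among those that fell in both ETS1 groups, and each lies before the RefSeq start and outside every annotated exon of GENCODE v44. A longer GENCODE transcript of COL11A1, and one of COL4A2 that starts within COL4A1, span the stretches of these genes as intron. All are on the plus strand except that of COL11A1, which is on the minus strand.
COL4A1 and COL4A2, chr13:110307158-110307257: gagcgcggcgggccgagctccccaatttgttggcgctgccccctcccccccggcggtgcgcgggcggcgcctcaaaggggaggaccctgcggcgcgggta
COL4A4 and COL4A3, chr2:227164454-227164623: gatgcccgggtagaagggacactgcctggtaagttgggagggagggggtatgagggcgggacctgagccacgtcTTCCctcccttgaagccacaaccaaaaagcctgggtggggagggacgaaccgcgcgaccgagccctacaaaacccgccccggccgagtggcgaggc
COL4A5 side of COL4A6 and COL4A5, chrX:108439588-108439837: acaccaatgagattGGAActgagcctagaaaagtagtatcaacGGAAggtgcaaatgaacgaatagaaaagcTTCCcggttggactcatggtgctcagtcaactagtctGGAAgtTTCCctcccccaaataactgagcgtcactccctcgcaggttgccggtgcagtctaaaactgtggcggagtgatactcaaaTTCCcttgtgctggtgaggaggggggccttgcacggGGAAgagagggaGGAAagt
COL5A1, chr9:134641553-134641802: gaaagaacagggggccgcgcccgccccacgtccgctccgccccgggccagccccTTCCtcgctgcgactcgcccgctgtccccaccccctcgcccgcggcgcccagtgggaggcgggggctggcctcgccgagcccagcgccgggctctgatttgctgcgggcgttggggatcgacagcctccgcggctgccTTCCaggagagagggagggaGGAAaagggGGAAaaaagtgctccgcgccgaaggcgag
COL11A1, chr1:103108523-103108772: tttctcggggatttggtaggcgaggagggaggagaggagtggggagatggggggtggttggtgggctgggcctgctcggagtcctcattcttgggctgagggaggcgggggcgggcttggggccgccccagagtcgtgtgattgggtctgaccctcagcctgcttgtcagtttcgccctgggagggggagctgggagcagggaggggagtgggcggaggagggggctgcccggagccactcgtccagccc

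The 100 bases between the first exon of COL4A1 and the COL4A2 transcripts that start next to it hold no GGAA, a core found in 66.8% of all RefSeq promoter windows of that length. The 170 bases between COL4A4 and COL4A3 hold 1, where 83.9% of windows of that length hold at least 1. The 250 bases next to COL4A5 hold 8 and those before COL5A1 hold 4, while the 250 before COL11A1 hold none. Over 32 collagen genes with a RefSeq promoter entry, 29 (90.6%) held GGAA in the 250 bases before their start, against 92.7% of all 35116 windows. None held CCGGAA, which contains GGAA, against 14.5% of all windows, and none held GGAAGGAA, against 3.06%. GGGCGG, the GC box, was found in 21 of the 32 (65.6%), against 42.6% of all windows. A collagen gene was counted if any of its RefSeq windows matched, whereas the share of all windows takes each window alone. The shares are therefore not the same measure. The other 12 collagen genes had no entry, among them COL1A1, COL3A1, COL5A2, COL6A1 and COL9A3. These are matches of letters on both strands in a fixed window, and binding was not measured.

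**Figure D1:**
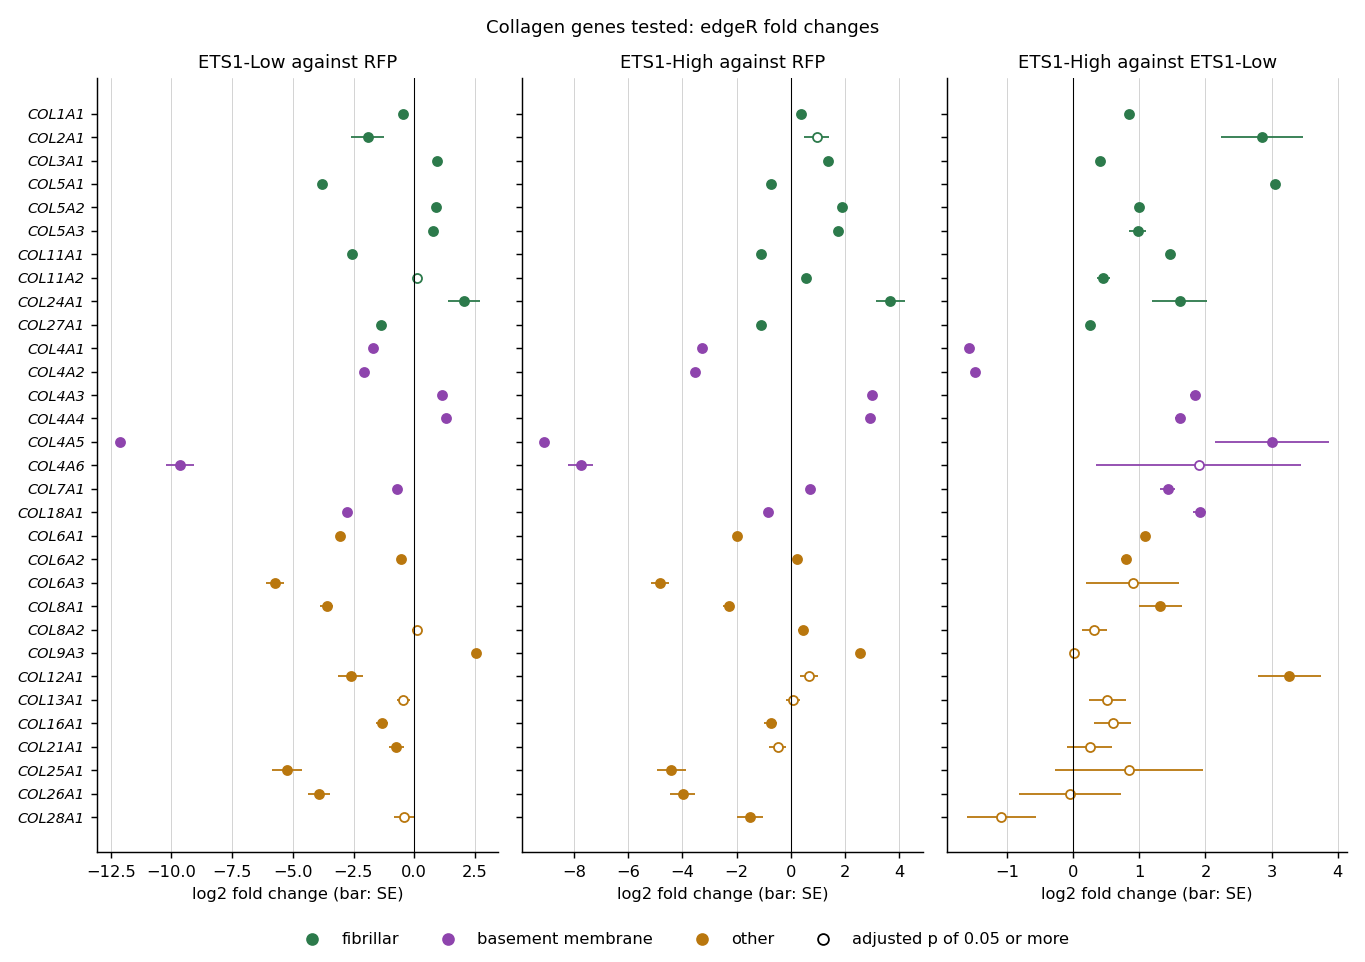
Log2 fold change of each collagen gene that was tested, with ETS1-High and ETS1-Low each set against RFP and then against each other, and with fibrillar, basement membrane and other collagens apart; filled points passed an adjusted p of 0.05 and bars are SE. All 10 fibrillar genes tested lie above 0 in ETS1-High against ETS1-Low, while COL4A1 and COL4A2 lie below 0 in all 3 comparisons; the far-left values of COL4A5 and COL4A6 rest on at most 5 counts in an ETS1 library.

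Of the 44 collagen genes, 31 had enough counts to be tested and 21 had at least 10 counts in every library. The first comparison asked how ETS1 at its higher level differed from the control. In ETS1-High against RFP, 12 collagen genes were higher, 15 were lower and 4 were not called, by edgeR's quasi-likelihood test at an adjusted p of 0.05. Across all 17235 genes tested, 74.2% were called, 37.0% higher and 37.2% lower, so a collagen call taken alone says little. At least 2-fold, 7 were higher and 12 lower, where 9.64% and 11.4% of all genes were, and the median size of the log2 change was 1.50 against 0.40 over all genes. By class, 6 of 10 fibrillar genes tested were higher and 3 lower, 3 of 8 basement membrane genes were higher and 5 lower, and 3 of 13 other genes were higher and 7 lower. Genes with few counts pass the filter mainly where they are high in a group, which in several of the lower genes was RFP. Over the 21 genes with 10 counts in every library, a set that leaves out those that fell to near 0, 11 were higher and 8 lower (5 and 3 fibrillar, 3 and 3 basement membrane, 3 and 2 other). At least 2-fold, 6 of these were higher and 5 lower, with a median size of 1.09 against 0.34 over all genes with 10 counts in every library. A fit limited to the 14420 genes with 10 counts in every library called 11154 of them, 50.1% of the calls being higher. No share at 2-fold was taken in that fit.

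The second comparison set the lower ETS1 level against the same RFP libraries. In ETS1-Low, 7 collagen genes were higher and 20 lower, and 4 were not called, where 74.1% of all genes were called, 37.9% higher and 36.2% lower. At least 2-fold, 4 were higher and 16 lower, beside 8.47% and 12.2% of all genes. The median log2 change was −1.34, against 0.01 over all genes, and in ETS1-High it was −0.49, against −0.01. Over the 21 genes with 10 counts in every library, the medians were −0.56 (ETS1-Low) and 0.23 (ETS1-High). Of these 21, 6 were higher and 12 lower in ETS1-Low, and at least 2-fold 3 were higher and 8 lower. The fit limited to all 14420 such genes called 11179 in ETS1-Low, 52.0% of the calls being higher.

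The third comparison set the ETS1 groups against each other, with RFP kept in the filter and the fit. Genes near 0 in both ETS1 groups, such as COL4A6 and COL25A1, were therefore among those tested. In this comparison 19 collagen genes were higher in ETS1-High, 2 were lower and 10 were not called, where 59.2% of all genes were called, 29.9% higher and 29.3% lower. At least 2-fold, 12 were higher and 2 lower, beside 6.05% and 3.69% of all genes. The median log2 difference was 0.89, against 0.00 over all genes, and it was 0.79 over the 21 genes with 10 counts in every library. Of these 21, 14 were higher and 2 lower, and at least 2-fold 7 were higher and 2 lower. The 2 lower genes were COL4A1 and COL4A2.

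Summed over all collagens, FPKM values (fragments scaled to gene length and library size), a unit that allows genes of different length to be set side by side, were 236.9 ± 12.7 (SD, n = 3) in RFP, 139.2 ± 0.40 in ETS1-Low and 213.9 ± 3.71 in ETS1-High. Fibrillar chains made up 151.2, 98.2 and 165.4 of these sums, and basement membrane chains 47.4 ± 2.59, 9.78 ± 0.23 and 12.5 ± 0.60. FPKM did not carry the normalisation used for CPM. On log2(FPKM + 0.1), the all-gene median change from RFP was −0.09 in ETS1-High and −0.08 in ETS1-Low. By edgeR on counts it was −0.01 and 0.01, so the sums include a general shift between RFP and the ETS1 groups. The leading genes differed between the groups. In RFP the most abundant collagen was COL11A1 at 54.9 FPKM, followed by COL3A1 at 35.3 and COL5A1 at 28.4. In ETS1-Low COL3A1 led at 63.3 FPKM, followed by COL9A3 at 24.2 and COL5A2 at 10.2. In ETS1-High COL3A1 led at 84.5 FPKM, and COL11A1 at 24.2 and COL9A3 at 23.9 overlapped for the next place. COL3A1 alone was 14.9% of the collagen FPKM in RFP, 45.5% in ETS1-Low and 39.5% in ETS1-High. COL11A1 was 23.2%, 6.33% and 11.3% of it.

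**Figure D2:**
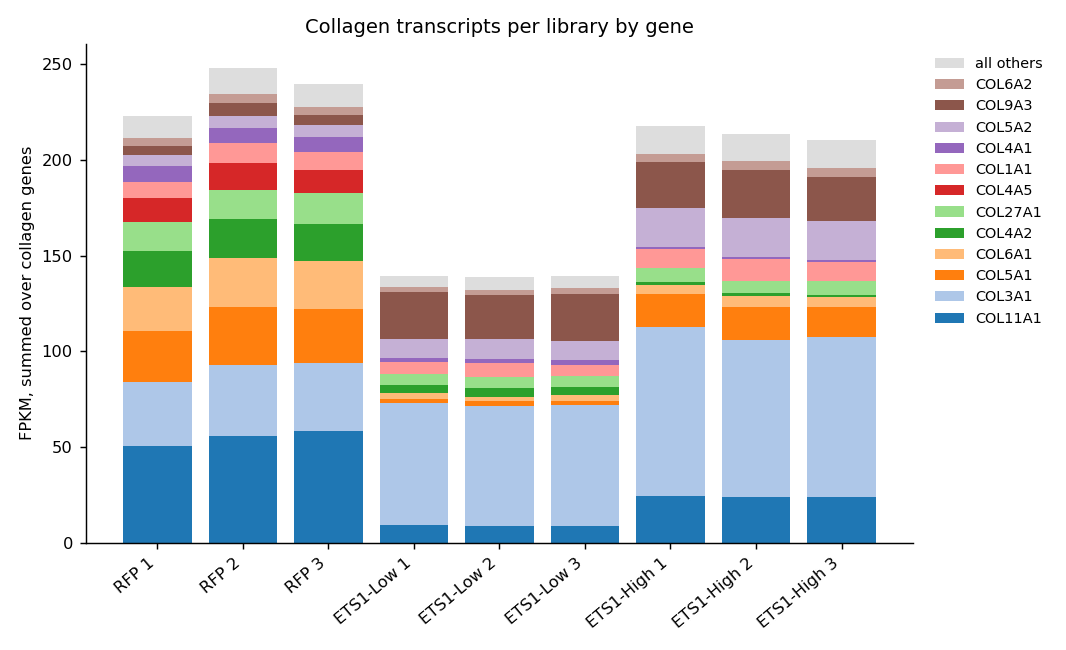
Collagen FPKM in each of the 9 libraries as stacked bars, with the leading genes in colour and all other collagens in grey; the height of a bar is the sum. The sums average 236.9 in RFP, 139.2 in ETS1-Low and 213.9 in ETS1-High, and COL3A1 takes 14.9%, 45.5% and 39.5% of them.

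Among fibrillar genes, COL3A1 and COL5A2 rose with each step of ETS1. COL3A1, the chain of type III collagen, stood at 167, 184 and 178 CPM in RFP, at 343, 343 and 340 in ETS1-Low and at 470, 439 and 442 in ETS1-High. COL5A2, a chain of type V collagen, stood at 34.9, 39.9 and 36.7 CPM in RFP, at 68.2, 69.1 and 69.7 in ETS1-Low and at 140, 135 and 135 in ETS1-High. No libraries of different groups overlapped for either gene. By edgeR, COL3A1 was higher by a log2 fold change of 1.35 in ETS1-High (adjusted p = 4.8e-37) and 0.95 in ETS1-Low (1.61e-30), and COL5A2 by 1.88 (1.75e-41) and 0.89 (1.19e-26). The genes are neighbours on chromosome 2, with 19151 bases between them. The 50 tested genes within 10 Mb had median log2 changes of 0.68 (ETS1-High) and 0.32 (ETS1-Low) relative to RFP and 0.36 between the ETS1 groups. Less that local median, COL3A1 was higher by 0.67 and 0.64 against RFP but by only 0.04 in ETS1-High against ETS1-Low, where its own log2 difference was 0.40. COL5A2 less the local median was higher by 1.20, 0.58 and 0.63 in the 3 comparisons.

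COL5A1 and COL11A1 went the other way and moved furthest in ETS1-Low. COL5A1, the usual partner chain of COL5A2, was at 203, 217 and 212 CPM in RFP, at 14.2, 16.0 and 15.5 in ETS1-Low and at 132, 129 and 118 in ETS1-High. COL11A1, a chain of the cartilage collagen type XI, was at 242, 260 and 259 CPM in RFP, at 44, 43.8 and 41.4 in ETS1-Low and at 123, 117 and 116 in ETS1-High. For both genes RFP was highest, ETS1-High intermediate and ETS1-Low lowest, with no overlap. COL5A1 fell by 3.79 on the log2 scale in ETS1-Low (SE 0.05; edgeR adjusted p = 1.55e-33) and by 0.74 in ETS1-High (SE 0.04; 1.3e-17), and between the ETS1 groups it was 3.05 higher in ETS1-High (3.39e-30). COL11A1 fell by 2.56 in ETS1-Low (2.24e-47) and by 1.09 in ETS1-High (2.41e-33), with a difference of 1.47 between the ETS1 groups (7.17e-36). The 178 genes around COL5A1 on chromosome 9 had local medians of −0.54 in ETS1-Low and −0.12 in ETS1-High, which leaves −3.25 and −0.62 for COL5A1. Around COL11A1, shown above with COL5A1, the local medians were 0.19 and 0.05.

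The balance between partner chains moved with these genes. FPKM of COL5A1 was 4.69 ± 0.08 times that of COL5A2 in RFP (SD, n = 3), 0.220 ± 0.011 times in ETS1-Low and 0.812 ± 0.044 times in ETS1-High. COL11A1 exceeded its partner COL11A2 by 48.7 times in RFP, 8.99 times in ETS1-Low and 17.9 times in ETS1-High. These are ratios of RNA, and protein was not measured.

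COL1A1, the main chain of type I collagen, was at 35.4, 40.7 and 41.8 CPM in RFP, at 26.8, 29.3 and 28.8 in ETS1-Low and at 53.5, 51.8 and 47.5 in ETS1-High. The ETS1-Low libraries were all below RFP and the ETS1-High libraries all above. Its log2 fold change was −0.47 in ETS1-Low (edgeR adjusted p = 8.92e-06), 0.37 in ETS1-High (4.52e-05) and 0.84 between the ETS1 groups (1.62e-08). COL1A2, which supplies the other chain of common type I collagen, had at most 1 count in any library. On log2(FPKM + 1) with limma, the COL1A1 difference in ETS1-High was 0.13 and was not called.

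The remaining fibrillar genes were COL27A1, COL5A3, COL11A2, COL24A1 and COL2A1. COL27A1, a fibrillar chain of cartilage, was at 78.6, 79.4 and 78.6 CPM in RFP, at 29.0, 32.0 and 30.3 in ETS1-Low and at 34.7, 35.9 and 38.1 in ETS1-High. It fell by 1.37 in ETS1-Low and by 1.12 in ETS1-High on the log2 scale, and its rise of 0.25 between the ETS1 groups became −0.22 less its local median. COL5A3, a further chain of type V, was at 1.25 to 1.66 CPM in RFP, 2.40 to 2.61 in ETS1-Low and 4.18 to 5.59 in ETS1-High, with log2 changes of 0.77 and 1.75 against RFP and 0.97 between the ETS1 groups, the first not called with limma on unfiltered log2(FPKM + 1) (0.19). Its 3 groups did not overlap, as with COL5A2. COL11A2 was at 3.71 to 4.12 CPM in RFP, 4.09 to 4.32 in ETS1-Low and 5.56 to 5.92 in ETS1-High, and was called higher in ETS1-High alone against RFP (0.57; edgeR adjusted p = 1.03e-06), a call that was lost on log2(FPKM + 1). COL24A1 rose by 2.05 in ETS1-Low and 3.66 in ETS1-High from very few counts. COL2A1, the chain of type II collagen of cartilage, fell by 1.91 in ETS1-Low (0.0114) and was not called in ETS1-High (0.95; 0.0571), also at few counts.

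**Figure D3:**
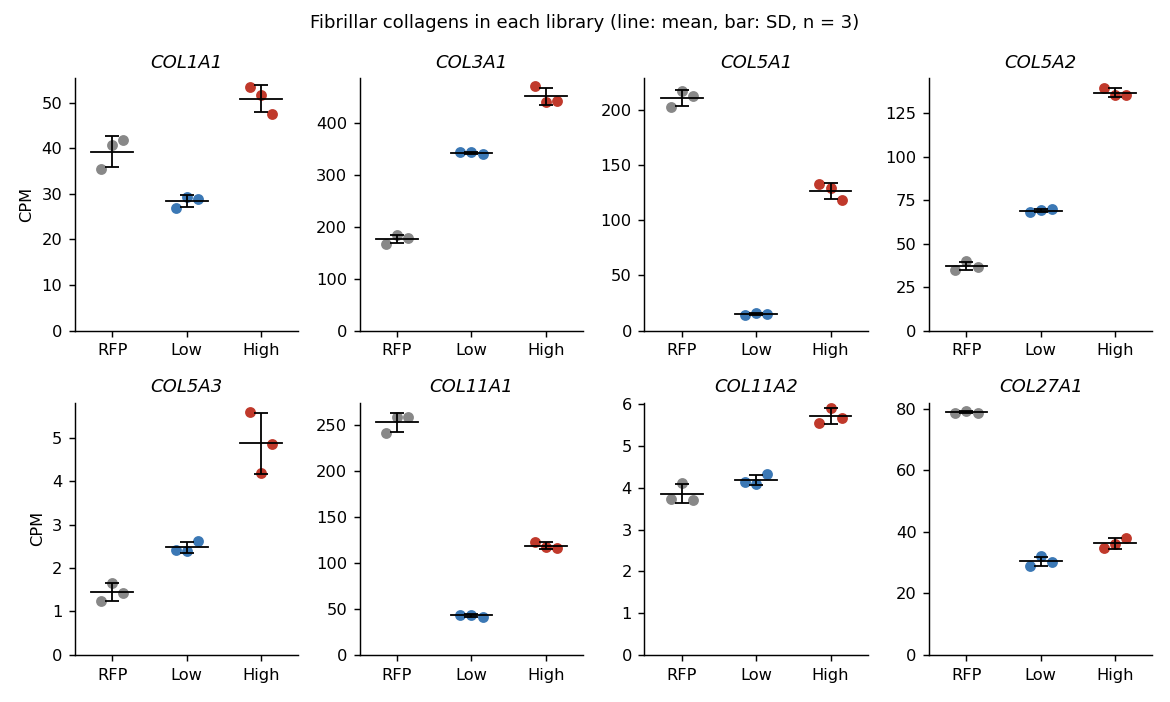
CPM of 8 fibrillar collagen genes in each library (points) of RFP, ETS1-Low and ETS1-High, with the mean (line) and SD (bar, n = 3). COL3A1 and COL5A2 climb over the 3 groups, while COL5A1 and COL11A1 are lowest in ETS1-Low and between the other groups in ETS1-High.

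Basement membrane genes showed a split within type IV collagen, whose 6 chains sit in 3 head-to-head pairs. The widespread chains COL4A1 and COL4A2 fell, COL4A3 and COL4A4 rose, and COL4A5 and COL4A6 were nearly absent from both ETS1 groups. As a sum, type IV FPKM went from 41.8 ± 2.10 (SD, n = 3) in RFP to 8.27 ± 0.37 in ETS1-Low and 8.30 ± 0.39 in ETS1-High. The ETS1 groups thus held about the same sum with the chains in different proportions.

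COL4A1 and COL4A2 form the network found under most epithelia and vessels. COL4A1 was at 46.7, 47.0 and 47.2 CPM in RFP, at 14.3, 13.5 and 15.6 in ETS1-Low and at 4.80, 4.78 and 4.95 in ETS1-High. COL4A2 was at 101, 103 and 105 CPM in RFP, at 25.4, 25.7 and 23.5 in ETS1-Low and at 9.55, 8.56 and 8.44 in ETS1-High. No libraries of different groups overlapped for either gene, and the drop from RFP to ETS1-Low was followed by a further one to ETS1-High. By edgeR, COL4A1 fell by 3.28 on the log2 scale in ETS1-High (SE 0.06; adjusted p = 5.34e-43), by 1.70 in ETS1-Low (SE 0.05; 1.65e-33) and by 1.58 between the ETS1 groups (SE 0.07; 4.32e-26). COL4A2 fell by 3.55 (SE 0.05; 4.44e-49), 2.05 (SE 0.04; 1.34e-41) and 1.49 (SE 0.05; 4.53e-29). FPKM of COL4A2 was 2.42 times that of COL4A1 in RFP, 1.98 times in ETS1-Low and 2.00 times in ETS1-High, with the lowest RFP ratio (2.23) above the highest of an ETS1 library (2.18). On chromosome 13 their local medians were −0.02, −0.09 and 0.09 in the 3 comparisons. In GENCODE v44 the genes overlap at their starts on opposite strands, through that longer COL4A2 transcript (COL4A1 at chr13:110148963-110307157, minus, and COL4A2 at chr13:110305812-110513209, plus), and whether counting used strand was not given in the sources used here.

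COL4A3 and COL4A4 encode chains of the network that is best known from kidney glomeruli and lung. COL4A3 was at 2.12, 2.71 and 2.15 CPM in RFP, at 5.16, 5.45 and 4.88 in ETS1-Low and at 18.0, 18.8 and 18.9 in ETS1-High. COL4A4 was at 2.60, 2.69 and 2.34 CPM in RFP, at 7.04, 6.20 and 5.64 in ETS1-Low and at 20.4, 19.6 and 17.7 in ETS1-High. The groups did not overlap for either gene, in the reverse order to COL4A1 and COL4A2. By edgeR, COL4A3 was higher by 3.00 on the log2 scale in ETS1-High (SE 0.09; adjusted p = 6.35e-34), 1.15 in ETS1-Low (SE 0.10; 1.57e-14) and 1.84 between the ETS1 groups (SE 0.08; 3.62e-26), and COL4A4 by 2.92 (2.67e-33), 1.31 (1.01e-16) and 1.61 (6.53e-24). The 84 genes around COL4A3 had local medians of 0.53, 0.30 and 0.25, which leaves 2.47, 0.85 and 1.59. FPKM of COL4A1 was 13.3 ± 6.62 times that of COL4A3 in RFP (SD, n = 3), 2.02 ± 0.50 times in ETS1-Low and 0.189 ± 0.021 times in ETS1-High. On log2(FPKM + 1) with limma, the COL4A3 rise in ETS1-Low was 0.33 and was not called. Its FPKM varied between RFP libraries, at 2.54, 3.55 and 0.864 times that of COL4A4.

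COL4A5 and COL4A6 lie head to head on the X chromosome, and COL4A5 is the partner of COL4A3 and COL4A4 in the glomerular network. COL4A5 was at 47.0, 51.1 and 49.1 CPM in RFP, from 2263, 2394 and 2395 counts. In ETS1-Low its counts were 1, 0 and 0, and in ETS1-High they were 3, 5 and 3. RFP exceeded ETS1-High by a fold of 557 (edgeR adjusted p = 2.24e-48), and the ratio of RFP to the 1 count of ETS1-Low was 6068, with a 95% interval of 1089 to 239700 that covers counting error only. COL4A6 had 114, 105 and 110 counts in RFP, 0 in every ETS1-Low library, which is at least 94.4-fold lower against a floor of 3 counts over the group, and 0, 0 and 1 in ETS1-High, a ratio of 295.1 (52.6 to 11690). Both genes thus had at most 5 counts in every ETS1 library, in which COL4A3 and COL4A4 were above RFP. ATG4A, 0.936 kb beyond COL4A6 and chosen after its values were seen, was lower than RFP by 0.98 on the log2 scale in ETS1-Low (edgeR adjusted p = 1.01e-13). Its change in ETS1-High was not called (−0.14; 0.12). IRS4, 22.4 kb beyond COL4A5 on the other side and chosen likewise, had 736 to 794 counts in the RFP libraries. Its counts were 0 in every ETS1-Low library and at most 1 in ETS1-High. The local medians of the 67 genes around COL4A5 were 0.12 and −0.56.

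**Figure D4:**
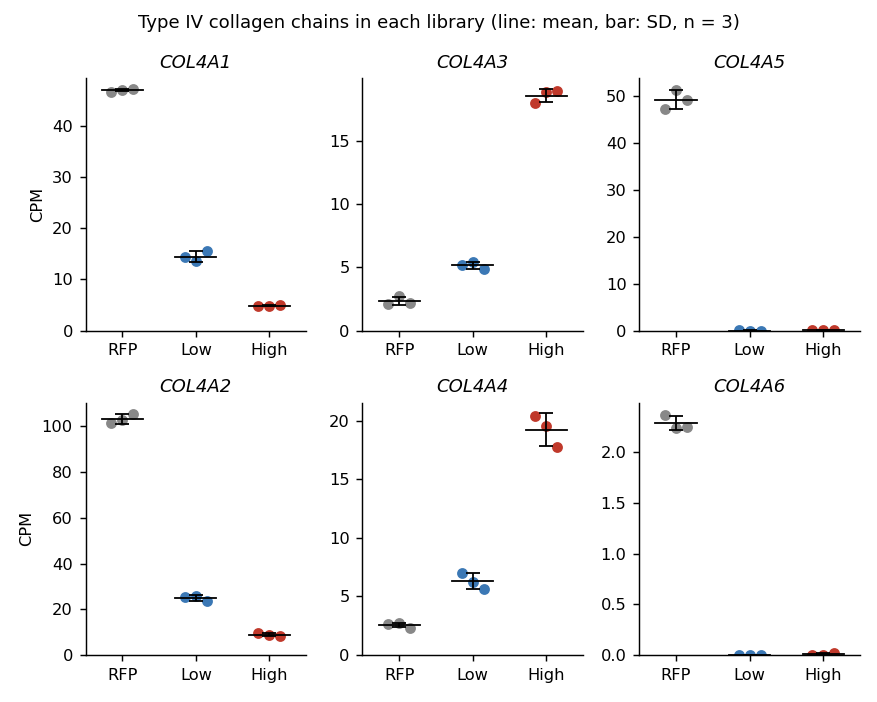
CPM of the 6 type IV collagen genes in each library (points) with the mean (line) and SD (bar, n = 3), on linear axes that start at 0, each column of panels being a head-to-head pair. COL4A1 and COL4A2 step down, COL4A3 and COL4A4 step up, and COL4A5 and COL4A6 are high in RFP alone.

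The other basement membrane genes were COL7A1, COL18A1 and COL15A1. COL7A1, the chain of the anchoring fibrils that tie basement membrane to the tissue below it, was at 4.30, 5.27 and 3.97 CPM in RFP, at 2.51, 2.71 and 3.03 in ETS1-Low and at 7.34, 7.61 and 7.25 in ETS1-High. It was below RFP in ETS1-Low (−0.71; edgeR adjusted p = 2.15e-07) and above it in ETS1-High (0.71; 7.37e-09), the latter not called on log2(FPKM + 1), where the difference was 0.21. COL18A1, the source of endostatin, was at 15.2, 17.2 and 16.9 CPM in RFP, at 1.82, 2.56 and 2.76 in ETS1-Low and at 8.89, 9.19 and 9.02 in ETS1-High. It fell by 2.78 in ETS1-Low (1.25e-30) and by 0.86 in ETS1-High (1.68e-14), the order of groups seen with COL5A1 and COL11A1. COL15A1 was too low to be tested, with 15, 16 and 10 counts in RFP, 0 in every ETS1-Low library and 1, 2 and 1 in ETS1-High.

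Among the other collagens, COL9A3 and the type VI chains COL6A1 and COL6A2 had the highest FPKM. COL9A3, a chain of type IX collagen, which sits on the surface of cartilage fibrils, was at 6.69, 8.00 and 6.08 CPM in RFP, at 42.2, 39.1 and 41.1 in ETS1-Low and at 41.1, 41.3 and 40.3 in ETS1-High. It was higher by a log2 fold change of 2.56 in each ETS1 group (edgeR adjusted p = 7.28e-33 in ETS1-High and 9.81e-33 in ETS1-Low), and the ETS1 groups overlapped, with a difference of 0.00 (0.95). Its partner chains COL9A1 and COL9A2 had at most 5 and 17 counts in a library. The neighbouring TCFL5 overlaps COL9A3 on the opposite strand, and its log2 change in ETS1-High was −0.09, and 0.18 in ETS1-Low.

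Type VI collagen forms beaded filaments around cells from COL6A1, COL6A2 and a further chain, in most tissues COL6A3. COL6A1 was at 74.4, 81.3 and 79.7 CPM in RFP, at 9.52, 8.74 and 9.96 in ETS1-Low and at 19.6, 20.9 and 19.3 in ETS1-High. COL6A2 was at 11.6, 12.7 and 11 CPM in RFP, at 7.72, 8.05 and 8.15 in ETS1-Low and at 12.9, 14.3 and 14.4 in ETS1-High. COL6A3 had 98, 126 and 103 counts in RFP, but 1, 1 and 3 in ETS1-Low and 4, 2 and 4 in ETS1-High. COL6A1 and COL6A3 were thus clearly highest in RFP, whereas COL6A2 was lowest in ETS1-Low and slightly above RFP in ETS1-High. By edgeR, the log2 fold changes for ETS1-High and ETS1-Low were −1.98 and −3.06 for COL6A1 (adjusted p = 7.58e-39 and 1.07e-44), −4.83 and −5.72 for COL6A3 (9.29e-19 and 1.75e-19), and 0.23 and −0.56 for COL6A2 (0.00225 and 1.73e-09). Without ETS1-Low replicate 3, the change of COL6A3 in ETS1-Low was −6.40. The small rise of COL6A2 in ETS1-High was 0.05 both less its local median and on log2(FPKM + 1), where it was not called. FPKM of COL6A1 was 5.59 ± 0.53 times that of COL6A2 in RFP (SD, n = 3), 1.03 ± 0.09 times in ETS1-Low and 1.16 ± 0.09 times in ETS1-High.

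COL8A1, a chain of a short, network-forming collagen of vessels and the eye, was at 2.81, 2.41 and 2.58 CPM in RFP, at 0.132, 0.178 and 0.317 in ETS1-Low and at 0.533, 0.512 and 0.537 in ETS1-High. It fell by 3.61 in ETS1-Low and 2.30 in ETS1-High on the log2 scale (edgeR adjusted p = 4.99e-18 and 9.3e-14), and its groups did not overlap. COL12A1, which lies on fibril surfaces, fell by 2.62 in ETS1-Low (1.22e-05) and was not called in ETS1-High (0.65; 0.0715). In ETS1-High, the log2 changes of COL25A1, COL26A1 and COL16A1 were −4.41, −3.99 and −0.74. In ETS1-Low, those of COL26A1, COL16A1 and COL21A1 were −3.93, −1.34 and −0.74, and the ratio of RFP to ETS1-Low counts of COL25A1 was 44.3 (12.0 to 370.8). For COL21A1 the ETS1-Low and RFP libraries overlapped (edgeR adjusted p = 0.0355), and its change in ETS1-High was not called (−0.49; 0.152). COL8A2 was called higher in ETS1-High alone against RFP (0.44; 0.0301), COL28A1 lower there (−1.50; 0.005), and COL13A1 was not called in any comparison. The 13 genes that were not tested had few counts in any library. Besides COL15A1 (at most 16), COL9A1 and COL9A2, the highest count was 7 for COL14A1, 4 for COL6A6 and COL20A1, 2 for COL17A1, COL19A1 and COL23A1, 1 for COL1A2, COL10A1 and COL22A1 and 0 for COL6A5.

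Genes that modify, fold, export and trim collagen chains changed in both directions. Of 28 found, 25 were tested, with 12 higher, 10 lower and a median log2 change of 0.06 in ETS1-High, and 16 higher, 9 lower and a median of 0.21 in ETS1-Low. Over all genes 37.0% and 37.2% were higher and lower in ETS1-High and 37.9% and 36.2% in ETS1-Low, with medians of −0.01 and 0.01. Between the ETS1 groups, 6 were higher and 11 lower in ETS1-High, where 29.9% and 29.3% of all genes were higher and lower. PLOD2, a lysyl hydroxylase that acts on the ends of collagen chains, fell from 10.1 ± 0.21 CPM in RFP (SD, n = 3) to 0.203 ± 0.073 in ETS1-Low and 0.818 ± 0.084 in ETS1-High, by 5.62 and 3.62 on the log2 scale (edgeR adjusted p = 1.81e-33 and 2.77e-30). P4HB, a subunit of prolyl hydroxylase that is also a general disulfide isomerase, rose from 354.3 CPM in RFP to 641.1 in ETS1-Low and 638.9 in ETS1-High, by 0.86 and 0.85. SERPINH1, the collagen chaperone HSP47, was at 350.9 ± 10.8, 489.7 ± 2.98 and 429.8 ± 13.6 CPM, higher by 0.48 in ETS1-Low and 0.29 in ETS1-High, the latter being −0.06 less its local median. P4HA1, the catalytic prolyl hydroxylase subunit, and COLGALT2, which adds galactose to hydroxylysine, rose by small amounts, P4HA1 by 0.26 in ETS1-Low and 0.27 in ETS1-High and COLGALT2 by 0.29 and 0.23. The rise of P4HA1 in ETS1-Low was −0.01 less its local median. FKBP14 was higher by 0.19 in ETS1-Low, which changed sign on FPKM, and by 0.48 in ETS1-High. The call in ETS1-High was lost with limma on unfiltered log2(FPKM + 1) (0.16).

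Of 10 collagen receptor genes, 9 were tested, and 8 were higher and 1 lower in ETS1-High, with a median of 0.73, while 5 were higher and 2 lower in ETS1-Low, with a median of 0.25. Beside these stand 74.2% and 74.1% of all genes called, with 37.0% and 37.9% higher, and all-gene medians of −0.01 and 0.01. Between the ETS1 groups, 6 were higher and 2 lower in ETS1-High, where 29.9% and 29.3% of all genes were higher and lower. ITGA1, whose integrin binds type IV collagen, was at 12.9 CPM in RFP, 12.6 in ETS1-Low and 48.2 in ETS1-High, a log2 rise of 1.90 in ETS1-High (edgeR adjusted p = 1.36e-36). Its level in ETS1-Low was not called (−0.03; 0.605). MRC2, an endocytic collagen receptor, rose by 0.47 in ETS1-Low and 0.73 in ETS1-High. Of the receptor tyrosine kinases that bind collagen, DDR1 rose by 0.51 in ETS1-High and was not called in ETS1-Low (0.06), and DDR2 rose by 0.18 in ETS1-High, a call lost on FPKM, and by 0.30 in ETS1-Low. ITGA11, whose integrin binds fibrillar collagen, fell by 3.94 in ETS1-Low and by 1.88 in ETS1-High from 0.662 CPM in RFP. Its change in ETS1-Low was −4.67 without ETS1-Low replicate 1, and that in ETS1-High was not called with limma on unfiltered log2(FPKM + 1) (−0.05).

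Of 14 transcription factors known to act on collagen promoters, 7 were higher and 4 lower in ETS1-High, and 9 were higher and 4 lower in ETS1-Low, where 74.2% and 74.1% of all genes were called, 37.0% and 37.9% higher. Between the ETS1 groups, 8 were higher and 4 lower in ETS1-High, where 29.9% and 29.3% of all genes were higher and lower. SP3, which binds GC boxes, rose by 0.41 in ETS1-Low and 0.77 in ETS1-High. SOX5 and SOX6, which act with SOX9 on cartilage genes, stood at 0.487 and 64.1 CPM in RFP, at 3.54 and 121.5 in ETS1-Low and at 6.20 and 154.8 in ETS1-High. Their log2 rises were 2.86 and 0.92 in ETS1-Low and 3.66 and 1.27 in ETS1-High. SOX9, named after its values were seen, fell from 15.9 CPM in RFP to 6.64 in ETS1-Low and 9.57 in ETS1-High.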

How the data were processed

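Total RNA of 9 TC-32 libraries was sequenced from stranded mRNA libraries, per the labels' protocols. The authors deposited 1 table of RSEM expected counts and 1 of FPKM per gene, per the file headers and the values. The expected counts were not normalised, and 9.0 to 10.3% of values were not whole. The FPKM values were scaled by the authors to gene length and library size. The submitters' processing notes name cutadapt 4.4, STAR 2.7.3, featureCounts in Subread 2.0.3, limma 3.38.3 and GRCh38. The RSEM version, annotation and strand setting are not given in the sources used here. Columns marked L and H were read as ETS1-Low and ETS1-High.

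Expected counts were rounded and fitted with edgeR 4.0.16 in R 4.3.3 (TMM, filterByExpr by group, quasi-likelihood test, all 9 libraries in 1 fit), with Benjamini-Hochberg adjustment over 17235 genes and calls at an adjusted p of 0.05. CPM are TMM-normalised. FPKM were used for levels of different genes and, on log2(FPKM + 1), as an alternative with limma 3.58.1. DESeq2 1.42.0 was another alternative. Local medians are over tested genes above a log2 CPM of 1 within 10 Mb on either side, with at least 20 genes. Fold bounds use a floor of 3 counts over a group, and ratios from group totals of 1 to 3 counts carry a 95% interval from an exact binomial test, which covers counting error only. Positions are from GENCODE v44. The edgeR script was tested on simulated data. The comparisons of each ETS1 group with RFP share the RFP libraries.

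The members and lists were chosen with earlier results of these data known. Named with the value in every library were collagens with a mean of at least 100 counts in a group, and other tested collagens with their log2 changes. Of the lists, SERPINH1, P4HA1, COLGALT2, DDR1, DDR2, ITGA1 and ITGA11 were named, with up to 3 genes per list of lowest p when ETS1-High was compared to RFP. Alternatives were other normalisation factors, filters, tests and fold thresholds, the fit of only the groups compared, the replicate block, the local median and leaving out each library. Same-numbered libraries did not deviate together (r from −0.03 to 0.03), so no pairing by number was seen. The labels do not say whether a number marks a shared culture or day.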

Additional observations from a re-analysis of the deposited data

Results flagged for a closer look

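COL1A1, COL7A1 and COL6A2 each differed from RFP in opposite directions in the ETS1 groups, lower in ETS1-Low and higher in ETS1-High, and edgeR's test of the difference between the ETS1 groups was past the threshold for each. That difference was 0.84 on the log2 scale for COL1A1 (adjusted p = 1.62e-08), 1.43 for COL7A1 (1.71e-16) and 0.79 for COL6A2 (1.13e-13), with ETS1-High above ETS1-Low in every library. The higher level in ETS1-High against RFP was not called for any of the 3 with limma on FPKM, while the lower level in ETS1-Low was.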

How the results depend on the processing

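Counts of calls were recomputed under up to 20 other settings, as were changes of 14 list genes and the 21 collagens named with levels. A setting with a stricter filter gives no value for genes that fail it. FPKM sums, chain ratios and the changes of other named genes were not recomputed. Leaving out 1 library at a time gave 11 to 13 higher and 15 to 16 lower collagen genes in ETS1-High against RFP, 7 higher and 18 to 21 lower in ETS1-Low, and 19 to 20 higher and 2 to 3 lower in ETS1-High against ETS1-Low. With the replicate number as a block, the counts were 12 and 15, 7 and 20, and 19 and 2, and no call of these 21 collagens or 14 list genes changed. At 10 counts in every library, which tests 21 collagens, 8 were lower in ETS1-High and 12 in ETS1-Low. On FPKM with limma, which tests fewer collagens after its filter, 5 were higher and 8 lower in ETS1-High at either pseudocount, 11 lower in ETS1-Low, and 4 higher in ETS1-Low with a pseudocount of 1. Without the FPKM filter, 7 were higher in ETS1-High and 4 in ETS1-Low. At 2-fold, 7, 4 and 12 were higher in the 3 comparisons.

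Small differences changed sign. In ETS1-Low against RFP, COL11A2 became −0.19 (pseudocount 0.1) and −0.11 (pseudocount 1), DDR1 −0.081 and −0.078 and FKBP14 −0.12 and −0.11 on FPKM, and P4HA1 −0.011 less its local median. SERPINH1 in ETS1-High against RFP became −0.059 and COL27A1 between the ETS1 groups −0.22, both less the local median. Between the ETS1 groups, COL9A3 became −0.0060 with upper-quartile factors and −0.016 and −0.015 on FPKM, P4HA1 −0.00068 with upper-quartile factors, P4HB 0.0069 with DESeq2, 0.0068 with its size factors and 0.0080 on FPKM, and COL4A6 0.0 on FPKM without a filter. Leaving out 1 library gave −0.026 to 0.030 for COL9A3, −0.0078 to 0.022 for P4HA1, −0.018 to 0.017 for P4HB and 0.0 to 2.38 for COL4A6. The cause was not tested. The share of higher calls among all calls was 49.8% in ETS1-High and 51.2% in ETS1-Low by edgeR on counts, 41.3% and 41.6% with limma on filtered log2(FPKM + 1), and 38.1% and 36.5% without that filter. The few counts of COL4A5, COL4A6 and COL6A3 in the ETS1 groups limit the precision of their changes. The call of COL4A5 between the ETS1 groups was lost on FPKM at either pseudocount.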

Other observations

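Genes next to collagen genes that changed strongly did so in different ways, and these neighbours were chosen after their values were seen. IRS4, an adaptor of insulin signalling whose gene lies 22.4 kb beyond COL4A5, was at 16.1 ± 0.83 CPM in RFP (SD, n = 3), had 0 counts in every ETS1-Low library and at most 1 in ETS1-High. SLC40A1, the iron exporter, 335 kb beyond COL5A2, rose from 0.605 CPM in RFP to 3.29 in ETS1-Low and 7.02 in ETS1-High, by 2.44 and 3.53 on the log2 scale. GULP1, 436 kb from COL5A2, fell by 1.13 and 1.08. RAB20, 9.86 kb from COL4A2, fell by 2.38 in ETS1-Low and 1.98 in ETS1-High. MFF, 10.4 kb from COL4A3, was higher by 0.69 and 0.74, and RHBDD1, 3.50 kb from COL4A4, by 0.36 and 0.33. OLFM1, beyond COL5A1, fell by 1.94 in ETS1-Low and by 0.14 in ETS1-High.

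Among the collagen receptors, ITGA2, named after its values were seen, was at 1.94 CPM in RFP, 0.335 in ETS1-Low and 4.85 in ETS1-High. Its log2 change was −2.54 in ETS1-Low (edgeR adjusted p = 2.34e-15) and 1.32 in ETS1-High (2.57e-12).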
